A study of Mus musculus with 18 samples.

Results

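Complement components and receptors were measured in cultured macrophages that had been grown from mouse bone marrow with the growth factor M-CSF. The rows were chosen by gene symbol: the C1q chain genes C1qa, C1qb and C1qc, the alternative pathway genes C3, Cfb and Cfp, and the anaphylatoxin receptor genes C3ar1 and C5ar1. Of these 8 genes, 7 had a row among the 24705 rows with a gene symbol, and C3 was not analysed here. No row carries the symbol C3 in the platform annotation. A row whose ID holds the Entrez gene number of C3 was among the rows without a name and was left unread. Every culture received 10% plasma of Western diet-fed mice on day 4, and RNA was isolated 48 hours later. The plasma donors were C57BL/6J mice fed the diet for 8 weeks: Wildtype (WT, 4 arrays), ApoE-KO (ApoE, 5 arrays), ApoE-Stab1-KO (AS1, 3 arrays) or ApoE-Stab2-KO (AS2, 6 arrays). AS1 and AS2 donors thus lacked apolipoprotein E as ApoE donors did, and in addition one of the scavenger receptors stabilin-1 and stabilin-2. The knockouts belonged to the plasma donors, and the labels name neither the genotype of the marrow donors nor whether plasma was pooled.

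The complement system is a cascade of plasma proteins that marks particles and cells for removal. In the classical pathway it is started by C1q, a protein built from A, B and C chains that binds immune complexes and dying cells, and macrophages are a main source of it. In the alternative pathway, factor B (Cfb) supplies the protease of the C3 convertase and properdin (Cfp) stabilises that complex. The small fragments C3a and C5a that the cascade releases are sensed by G protein-coupled receptors on myeloid cells, encoded by C3ar1 and C5ar1.

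Promoter sequences are shown for the genes whose levels moved together with AS2 plasma, C1qb, C1qc and Cfp on the one hand and C3ar1 and C5ar1 on the other. They are RefSeq sequences of build GRCm38.p6, from 250 bases before to 50 after each gene's start, and 5 of the 7 genes with values had such an entry. All 5 are on the minus strand, at chr4:136886151-136886450 (C1qb), chr4:136892865-136893164 (C1qc), chrX:20931506-20931805 (Cfp), chr6:122856108-122856407 (C3ar1) and chr7:16259289-16259588 (C5ar1). Capitals mark matches, on either strand, to the letters of a PU.1 core (GAGGAA), a MAF core (TGCTGA) or an AP-1 site (TGANTCA), motifs of transcription factors that act in macrophages.
C1qb: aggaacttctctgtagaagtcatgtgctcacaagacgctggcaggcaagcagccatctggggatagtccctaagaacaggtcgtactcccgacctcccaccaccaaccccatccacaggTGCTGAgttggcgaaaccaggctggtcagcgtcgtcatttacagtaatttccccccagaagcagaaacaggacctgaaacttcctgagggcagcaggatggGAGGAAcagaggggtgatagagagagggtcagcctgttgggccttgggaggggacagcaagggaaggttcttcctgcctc
C1qc: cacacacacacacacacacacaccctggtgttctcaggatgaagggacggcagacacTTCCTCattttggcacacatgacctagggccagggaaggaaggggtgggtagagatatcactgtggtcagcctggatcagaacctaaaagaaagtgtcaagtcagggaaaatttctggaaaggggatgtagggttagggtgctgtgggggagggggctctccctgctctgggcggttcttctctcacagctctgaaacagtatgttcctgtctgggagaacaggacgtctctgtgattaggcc
Cfp: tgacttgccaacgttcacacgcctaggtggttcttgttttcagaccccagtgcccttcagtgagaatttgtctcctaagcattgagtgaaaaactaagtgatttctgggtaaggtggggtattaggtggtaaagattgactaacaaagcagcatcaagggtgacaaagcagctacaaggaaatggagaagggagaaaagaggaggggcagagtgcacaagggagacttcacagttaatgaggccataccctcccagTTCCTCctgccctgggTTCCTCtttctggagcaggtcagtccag
C3ar1: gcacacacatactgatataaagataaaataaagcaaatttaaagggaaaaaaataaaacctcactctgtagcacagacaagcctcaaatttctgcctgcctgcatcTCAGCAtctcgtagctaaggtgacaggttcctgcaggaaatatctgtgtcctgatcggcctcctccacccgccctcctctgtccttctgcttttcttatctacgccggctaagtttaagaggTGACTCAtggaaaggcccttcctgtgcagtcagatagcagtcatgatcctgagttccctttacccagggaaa
C5ar1: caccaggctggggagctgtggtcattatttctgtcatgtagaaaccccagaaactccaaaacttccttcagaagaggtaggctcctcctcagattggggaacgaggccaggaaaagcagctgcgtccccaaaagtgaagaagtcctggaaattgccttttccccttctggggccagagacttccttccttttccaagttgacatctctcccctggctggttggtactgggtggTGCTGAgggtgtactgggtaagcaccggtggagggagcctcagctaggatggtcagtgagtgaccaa

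The PU.1 core letters were found in the C1qb, C1qc and Cfp windows and not in the C3ar1 or C5ar1 windows. Among 32851 promoter windows of the same length, 28.3% held these letters. The MAF core letters were found in C1qb, C3ar1 and C5ar1 and in 19.5% of all windows, and the AP-1 letters in C3ar1 and in 7.81% of all windows. A C/EBP motif (TTGCNNAA) and an interferon-response motif had no match in the 5 windows and were held by 10.8% and 3.44% of all windows. No marked motifs overlapped. These matches describe letters only. C1qb, C1qc and C1qa are consecutive genes on mouse chromosome 4 in RefSeq's gene order.

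Values are log2 expression values from RMA, a method that corrects background, equalises arrays and summarises probes, so 1 unit is a 2-fold difference. The mean r of an array with the others of its group, taken across genes and so not over independent points, was 0.9912 to 0.9971, and ApoE replicate 2 had the lowest value. ApoE replicate 1 held 24162 distinct values against 7087 on each other array. ApoE replicates 1 and 2 were the 2 lowest ApoE arrays for 6 of the 7 complement genes, the exception being Cfb. For the complement genes, the ApoE comparisons are therefore also given without both arrays where a call was gained or lost or the value moved by over 1.5 times. The arrays were picked by these values, so leaving them out raises the ApoE means of those 6 genes by construction. It also changes the spread estimate that all comparisons share. Calls gained in that way are no added evidence. The macrophage genes Csf1r and Adgre1 lay between 12.02 and 12.79 on all 18 arrays, but were not level across the groups. With ApoE against WT plasma Adgre1 fell by 0.48 and Csf1r by 0.39 log2 units. With AS1 against ApoE plasma they rose by 0.46 and 0.35. Other macrophage markers did not follow them. Cd68 rose by 0.24 with ApoE against WT plasma and, at -0.16, did not pass with AS1 against ApoE plasma. Mertk and Mrc1 passed in neither comparison. Nothing in the labels says that replicates came from different cultures, and p-values therefore describe the spread among these arrays, which may be technical.

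All 7 complement genes differed among the 4 plasma groups, by limma's moderated F test with Benjamini-Hochberg adjustment over all rows, with adjusted p from 9.18e-07 for C1qa to 0.0284 for Cfb. The same test called 30.2% of all rows. The C1q chains had their highest mean with WT plasma and their lowest with AS2 plasma, Cfp was lower with AS2 plasma than with any other, and the 2 anaphylatoxin receptors were lowest with ApoE plasma.

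**Figure D1:**
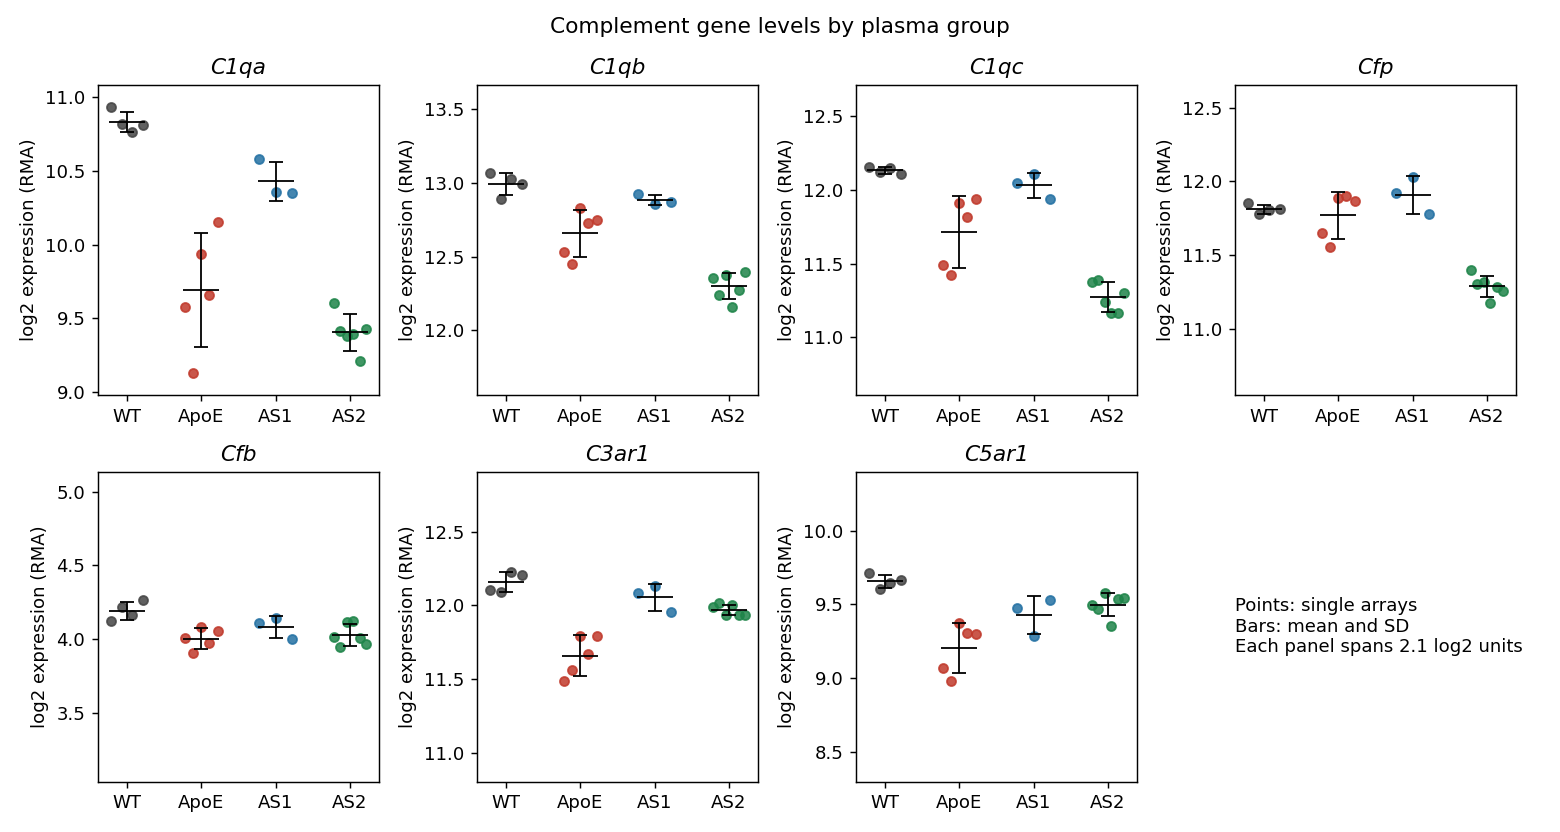
Log2 expression of the 7 complement genes (y axis, each panel spanning 2.1 log2 units) in the WT, ApoE, AS1 and AS2 plasma groups (x axis); points are arrays and bars show the mean and SD. C1qa falls from 10.77 to 10.93 on the WT arrays to 9.21 to 9.60 on the AS2 arrays, whereas C3ar1 is lowest on the ApoE arrays.

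Of the C1q chains, the A chain gene C1qa had the widest span of group means, 1.43 log2 units. C1qa was 10.93, 10.82, 10.77 and 10.81 on the WT arrays and 9.58, 9.13, 9.94, 9.66 and 10.15 on the ApoE arrays. It was 10.58, 10.36 and 10.35 on the AS1 arrays, and from 9.21 to 9.60 with a median of 9.41 on the 6 AS2 arrays. The 4 WT arrays lay above all others, the 3 AS1 arrays lay above every ApoE and AS2 array, and the ApoE and AS2 arrays overlapped.

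With ApoE plasma, C1qa was 9.69 ± 0.39 (SD, n = 5) against 10.83 ± 0.07 (SD, n = 4) with WT plasma, a decrease of 2.20-fold (limma adjusted p = 1.36e-05). With AS1 plasma it was 10.43 ± 0.13 (SD, n = 3), 0.74 ± 0.15 (SE) log2 units above ApoE (adjusted p = 0.00241). That call was lost when only those arrays were fitted (adjusted p = 0.0539), and over all alternatives the adjusted p ran from 9.10e-05 to 0.0539. With AS2 plasma it was 9.40 ± 0.13 (SD, n = 6), a difference of -0.29 ± 0.13 (SE) from ApoE that did not pass (adjusted p = 0.173). Without ApoE replicate 2, the lowest array of all 18 for C1qa, the difference was -0.43 (adjusted p = 0.00501), and without ApoE replicates 1 and 2 it was -0.51 (adjusted p = 0.00133), while over all alternatives the adjusted p ran from 0.00133 to 0.433. Against WT, the AS2 level was 2.69-fold lower (adjusted p = 5.07e-07).

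The B chain gene C1qb was 13.06, 12.89, 13.03 and 12.99 on the WT arrays and 12.53, 12.45, 12.83, 12.73 and 12.75 on the ApoE arrays. It was 12.92, 12.86 and 12.87 on the AS1 arrays, and from 12.16 to 12.40 with a median of 12.31 on the AS2 arrays. All AS2 arrays lay below the arrays of every other group, and all ApoE arrays lay below the WT and AS1 arrays. C1qb fell by 0.34 ± 0.07 (SE) log2 units with ApoE against WT plasma (adjusted p = 0.00212) and by a further 0.36 ± 0.06 with AS2 against ApoE plasma (adjusted p = 0.000489). With AS1 plasma it was 0.23 ± 0.08 above ApoE and narrowly missed the threshold (adjusted p = 0.0501). It passed without ApoE replicate 3, ApoE replicate 5, AS2 replicate 4 or WT replicate 2 (adjusted p from 0.0183 to 0.0487), and was 0.12 above without ApoE replicates 1 and 2 (adjusted p = 0.288). With all 18 arrays kept, it passed with unnamed rows included (limma adjusted p = 0.0499), the dimmest rows left out (0.0462) or trended robust variance (0.0279).

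The C chain gene C1qc was 12.16, 12.12, 12.15 and 12.10 on the WT arrays and 11.49, 11.42, 11.91, 11.81 and 11.94 on the ApoE arrays. It was 12.05, 12.10 and 11.94 on the AS1 arrays, and from 11.16 to 11.39 with a median of 11.27 on the AS2 arrays. The AS2 arrays were again below all others, while the ApoE arrays fell into a lower pair, replicates 1 and 2, and a higher trio. C1qc fell by 0.42 ± 0.09 (SE) log2 units with ApoE against WT plasma (adjusted p = 0.0036) and by 0.44 ± 0.08 with AS2 against ApoE plasma (adjusted p = 0.000958). Without ApoE replicates 1 and 2 these changes were -0.24 and -0.61 and stayed called. The increase of 0.32 ± 0.10 with AS1 against ApoE plasma (adjusted p = 0.0407) was lost without ApoE replicate 1 or 2, any 1 of the AS1 arrays, WT replicate 3, or AS2 replicate 3 or 6, with adjusted p from 0.0505 to 0.147. Without ApoE replicates 1 and 2 it was 0.14 (adjusted p = 0.193). The call was also lost with array weights (limma adjusted p = 0.0641) and when only the 2 compared groups were fitted (0.186).

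Whether the chains changed by the same amount was tested on the difference between 2 chains within each array. C1qa minus C1qb was -2.97 ± 0.27 (SD, n = 5) with ApoE plasma and -2.16 ± 0.08 (SD, n = 4) with WT plasma, so C1qa was lower by 0.80 log2 units more than C1qb, and the arrays of the groups did not overlap. This gave p = 0.0159 in an exact two-sided permutation test, the smallest p that 5 against 4 arrays allow, and 0.0952 after adjustment over 12 tests. C1qa minus C1qc differed by -0.72 with the same p. With AS1 against ApoE plasma the 2 differences were 0.51 and 0.42 (exact permutation p = 0.0357 each, the smallest possible, and 0.107 adjusted). For C1qb minus C1qc the unequal changes were 0.08, -0.09 and 0.08 log2 units in the 3 comparisons (exact permutation p from 0.175 to 0.25, adjusted p from 0.299 to 0.333). C1qb lay between the 99.7th and the 99.95th percentile of its array's values and C1qa between the 93rd and the 98.9th, and the part of signal compression at the top of the range was not tested. In all, 0 of the 12 tests passed after adjustment and 4 had an unadjusted p under 0.05.

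**Figure D2:**
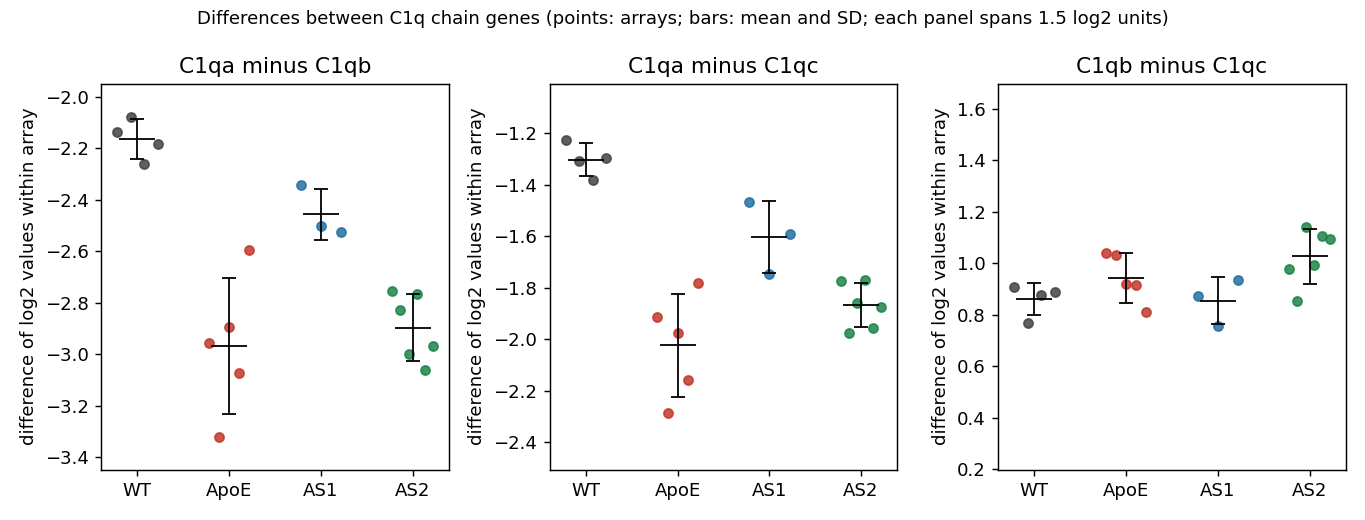
Difference of log2 values between 2 C1q chain genes on the same array (y axis, each panel spanning 1.5 log2 units) in the 4 plasma groups (x axis); points are arrays and bars show the mean and SD. C1qa minus C1qb averages -2.16 with WT plasma and -2.97 with ApoE plasma, while C1qb minus C1qc averages 0.86 and 0.94.

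The properdin gene Cfp did not pass with ApoE against WT plasma and fell with AS2 plasma. Cfp was 11.85, 11.78, 11.81 and 11.81 on the WT arrays and 11.65, 11.55, 11.89, 11.90 and 11.87 on the ApoE arrays. It was 11.92, 12.03 and 11.78 on the AS1 arrays, and from 11.18 to 11.40 with a median of 11.29 on the AS2 arrays. The WT, ApoE and AS1 arrays overlapped, and all 6 AS2 arrays lay below them.

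Cfp fell by 0.48 ± 0.06 (SE) log2 units with AS2 against ApoE plasma (adjusted p = 2.46e-05) and by 0.62 ± 0.07 against AS1 plasma (adjusted p = 7.25e-06). Its difference between ApoE and WT plasma was -0.04, with a 95% interval from -0.19 to 0.11 (adjusted p = 0.817), and was 0.01 without ApoE replicate 2. AS1 plasma gave 0.14 above ApoE, with an interval from -0.02 to 0.30 (adjusted p = 0.294), and 0.02 above without ApoE replicates 1 and 2 (adjusted p = 0.899).

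Cfb, the factor B gene, was dim on every array, from 3.91 to 4.26, under the array median of 4.37. It was 4.12, 4.22, 4.17 and 4.26 on the WT arrays and 4.01, 3.91, 4.08, 3.97 and 4.05 on the ApoE arrays. It was 4.11, 4.14 and 4.00 on the AS1 arrays, and from 3.95 to 4.12 with a median of 4.01 on the AS2 arrays. The ApoE arrays lay below the WT arrays, and the other groups overlapped with each other and with ApoE. Cfb fell by 0.19 ± 0.05 (SE) log2 units with ApoE against WT plasma (adjusted p = 0.0127), a call that was lost without WT replicate 4 (adjusted p = 0.0515) and without ApoE replicates 1 and 2 (0.08). Its differences from ApoE were 0.08 with AS1 plasma and 0.03 with AS2 plasma (adjusted p = 0.428 and 0.837), and 0.05 and -0.0071 without ApoE replicates 1 and 2.

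The C3a receptor gene C3ar1 was 12.10, 12.09, 12.23 and 12.21 on the WT arrays and 11.48, 11.56, 11.79, 11.67 and 11.79 on the ApoE arrays. It was 12.08, 12.13 and 11.95 on the AS1 arrays, and from 11.94 to 12.01 with a median of 11.96 on the AS2 arrays. Every ApoE array lay below every array of the other groups. C3ar1 fell by 0.50 ± 0.06 (SE) log2 units with ApoE against WT plasma (adjusted p = 1.02e-05). It rose by 0.40 ± 0.07 with AS1 and by 0.31 ± 0.05 with AS2 against ApoE plasma (adjusted p = 0.00034 and 0.000466), and these calls held without ApoE replicates 1 and 2 (0.30 and 0.22). Both increases are measured against the same ApoE arrays.

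The C5a receptor gene C5ar1 was 9.71, 9.61, 9.64 and 9.66 on the WT arrays and 9.07, 8.98, 9.38, 9.31 and 9.30 on the ApoE arrays. It was 9.48, 9.28 and 9.53 on the AS1 arrays, and from 9.36 to 9.58 with a median of 9.52 on the AS2 arrays. The WT arrays lay above all others, and the highest ApoE array reached into the AS1 and AS2 ranges. C5ar1 fell by 0.45 ± 0.07 (SE) log2 units with ApoE against WT plasma (adjusted p = 0.000272) and rose by 0.29 ± 0.07 with AS2 against ApoE plasma (adjusted p = 0.00506). The increase was 0.17 without ApoE replicates 1 and 2 (adjusted p = 0.0584), and over all alternatives the adjusted p ran from 0.00216 to 0.0584. With AS1 plasma C5ar1 was 0.22 ± 0.08 above ApoE (adjusted p = 0.0756), and this passed on leaving out ApoE replicate 3 (0.0329) or AS1 replicate 2 (0.0321). Without ApoE replicates 1 and 2 it was 0.10 above (0.408), the highest adjusted p of its alternatives.

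The changes of the 2 receptors were compared within arrays. C3ar1 minus C5ar1 shifted by -0.05 with ApoE against WT, 0.17 with AS1 against ApoE and 0.02 with AS2 against ApoE plasma (exact permutation p = 0.429, 0.143 and 0.775). After adjustment over the 12 tests these p-values were 0.514, 0.286 and 0.775, which does not show that the receptors changed alike.

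The 3 comparisons along the study's design can be read side by side. With ApoE against WT plasma, 6 of the 7 genes fell and Cfp did not pass, where 8.36% of all 24705 rows fell, 8.54% rose and 16.9% changed in either direction. The arrays of the groups did not overlap for these 6 genes, as for 6.9% of all rows lying wholly lower. The median change of the 7 genes was -0.42 log2 units, against -0.0036 over all rows. With AS1 against ApoE plasma, C1qa, C1qc and C3ar1 rose and 4 genes did not pass, where 7.74% of all rows rose, 8.8% fell and 16.5% changed. The AS1 arrays lay wholly above the ApoE arrays for C1qa, C1qb and C3ar1, as for 9.04% of all rows, and the median of the 7 genes was 0.23 against 0.0019 over all rows. This count of 3 was 1, C3ar1, when only those arrays were fitted. With AS2 against ApoE plasma, C1qb, C1qc and Cfp fell, C3ar1 and C5ar1 rose, and C1qa and Cfb did not pass. Of all rows, 8.02% fell, 7.59% rose and 15.6% changed in that comparison. The AS2 arrays lay wholly below the ApoE arrays for C1qb, C1qc and Cfp and wholly above for C3ar1, as for 5.48% and 5.44% of all rows. Because the genes moved both ways, their median of -0.29 does not describe them.

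**Figure D3:**
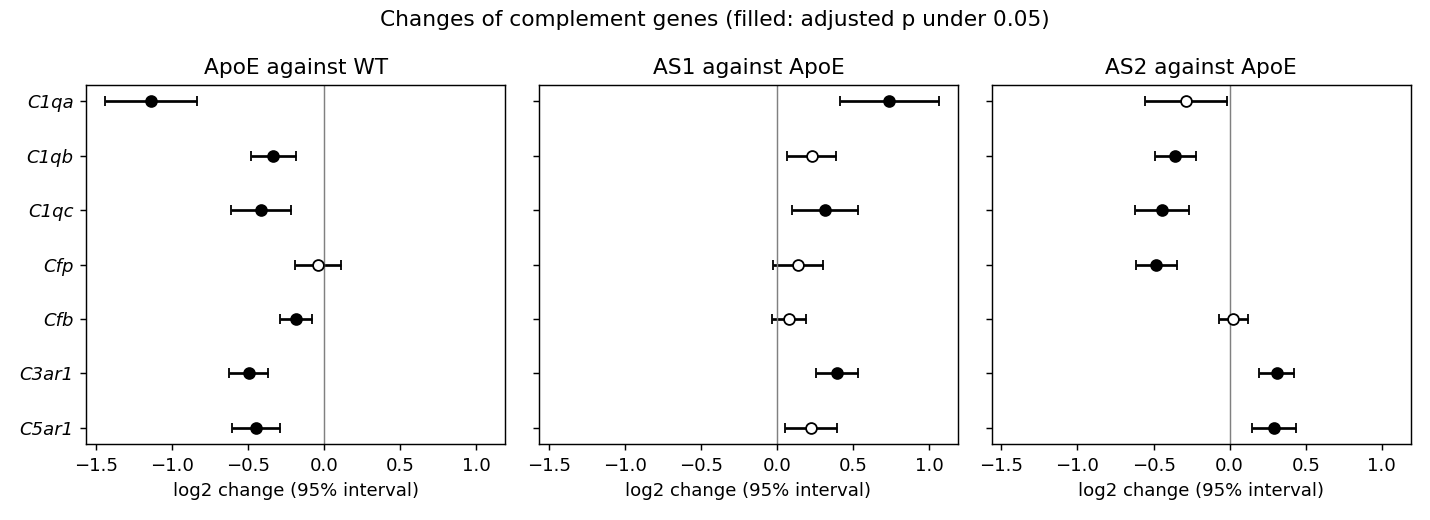
Log2 change of each complement gene (x axis, points with 95% intervals from the limma fit) in the 3 comparisons; filled points have an adjusted p under 0.05. In the AS2 against ApoE panel C1qb, C1qc and Cfp lie to the left of 0 and C3ar1 and C5ar1 to the right, whereas in the AS1 against ApoE panel all called genes lie to the right.

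The plasmas of stabilin-deficient donors were compared directly to see where AS1 and AS2 plasma differed. With AS2 against AS1 plasma, C1qa fell by 1.02 ± 0.15 (SE) log2 units, C1qc by 0.76 ± 0.10, Cfp by 0.62 ± 0.07 and C1qb by 0.58 ± 0.07, with limma adjusted p from 7.25e-06 to 5.83e-05. These 4 genes did not overlap between the groups, where 11.6% of all rows lay wholly lower with AS2 plasma and 10.6% fell by the test. C3ar1, C5ar1 and Cfb did not pass, with differences of -0.09, 0.07 and -0.05 and 95% intervals from -0.22 to 0.05, from -0.10 to 0.23 and from -0.16 to 0.06. For C3ar1 and C5ar1, a difference of the size seen in the C1q chains lay outside these intervals. Cfb was dim, so a decrease of that size may not have been visible and its interval cannot decide this.

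**Figure D4:**
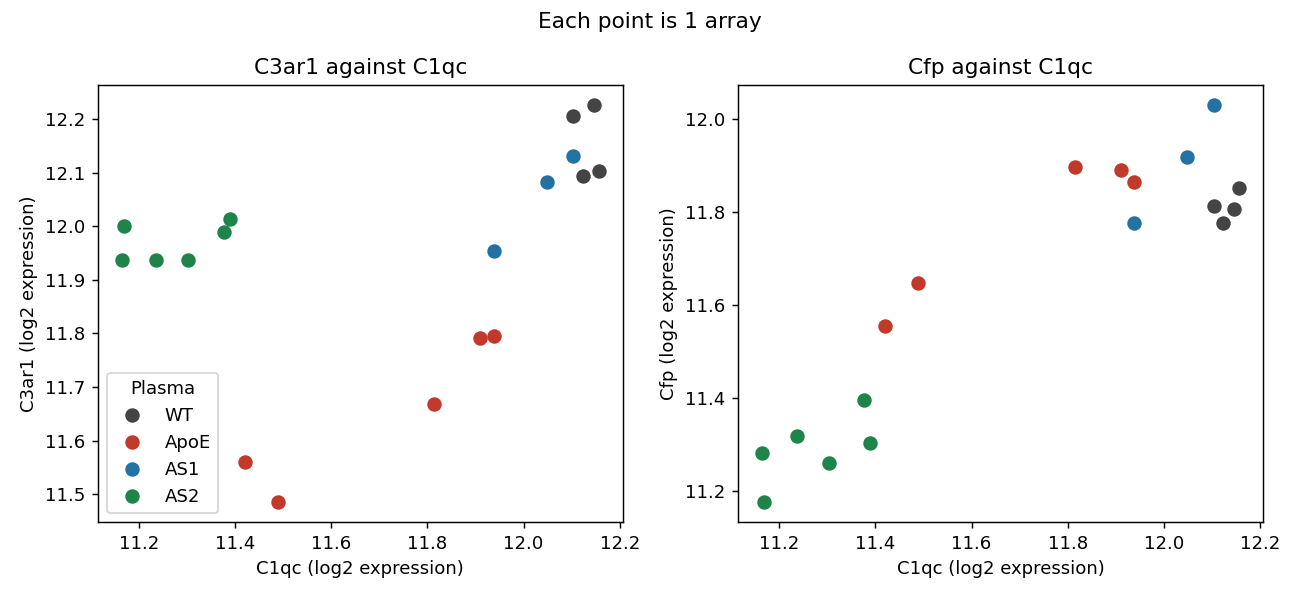
C3ar1 (left) and Cfp (right) on the y axis against C1qc on the x axis, in log2 expression, with 1 point for each of the 18 arrays coloured by plasma group. The AS2 arrays have the lowest C1qc, from 11.16 to 11.39, with C3ar1 from 11.94 to 12.01, above every ApoE array, and with the lowest Cfp, from 11.18 to 11.40.

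Against WT plasma, AS2 plasma gave lower levels of 6 of the 7 genes, where 9.2% of all rows fell. The AS2 arrays lay wholly below the WT arrays for 6 genes, C5ar1 among them and Cfb not, as for 8.59% of all rows. C1qb and C1qc were 1.62-fold and 1.81-fold lower (adjusted p = 6.05e-07 and 1.43e-06), and Cfp was 1.44-fold lower (1.79e-05). The decreases of C3ar1 and Cfb were small, at 0.19 ± 0.06 and 0.16 ± 0.05 (SE) log2 units (adjusted p = 0.031 and 0.0234). The C3ar1 call was lost without WT replicate 3 or 4 or AS2 replicate 3, 5 or 6 (adjusted p from 0.0578 to 0.105), and the Cfb call without WT replicate 2 or 4 or AS2 replicate 2 or 6 (adjusted p from 0.0517 to 0.09). C5ar1 was 0.16 lower and did not pass (adjusted p = 0.167). It passed when only those arrays were fitted and without ApoE replicates 1 and 2 (adjusted p = 0.0333 and 0.0403).

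With AS1 against WT plasma, 0 of the 7 genes passed by limma, where 9.48% of all rows did, and C1qa and C5ar1 had an unadjusted p under 0.05. C1qa was 0.40 lower, with a 95% interval from -0.74 to -0.06 (adjusted p = 0.154), and C5ar1 was 0.23 lower, with an interval from -0.41 to -0.05 (adjusted p = 0.121). For both genes the AS1 arrays lay wholly below the WT arrays, as for 9.38% of all rows. C1qa passed without ApoE replicate 2 (adjusted p = 0.0326), when only those arrays were fitted (0.0151) and without ApoE replicates 1 and 2 (0.0186), where C5ar1 passed too (0.0235).

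C1qa was the only gene of the 7 whose group means spanned at least 1 log2 unit. By the root mean square difference between profiles centred on each gene's own mean over the 18 arrays, the genes most like it were Smagp, Lst1 and Nxpe5, at 0.17, 0.17 and 0.21 log2 units, where the C1qa profile itself had a root mean square of 0.61. Smagp encodes a small membrane protein, and Lst1 is a leukocyte gene of the MHC region. From WT, ApoE, AS1 to AS2 plasma, the group means of Lst1 were 9.47, 8.47, 9.34 and 8.30. C1qb and C1qc were farther from C1qa in this measure, at 0.36 and 0.30. C1qb and C1qc differed from each other by 0.11, C1qb and Cfp by 0.12, and C3ar1 and C5ar1 by 0.12. The measure is not scaled to a gene's own variation, so genes that vary little can lie close by it. The group means of C3ar1 and C5ar1 spanned 0.50 and 0.45. The dim Cfb, with a span of 0.19, was 0.15 from C3ar1 and 0.16 from C5ar1.

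The rest of the complement system was read from a list of 49 other components, receptors and regulators, of which 45 had a row. With ApoE against WT plasma 4 of the 45 rose and 5 fell, with AS1 against ApoE plasma 6 rose and 3 fell, and with AS2 against ApoE plasma 5 rose and 5 fell. These shares, 20.0%, 20.0% and 22.2%, stand beside 16.9%, 16.5% and 15.6% of all rows called in the same comparisons. The medians of the list were -0.03, 0.03 and -0.0002 log2 units. The genes of the terminal components, C6, C7, C8a, C8b, C8g, C9 and Hc, which encodes C5, passed in none of these comparisons. They were dim, with group means from 3.70 to 4.19, under the array median of 4.37, so a decrease may not have been visible.

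Among the receptors for C3 fragments, the integrin gene Itgam (CD11b of complement receptor 3) was lowest with ApoE plasma, as C3ar1 was. Itgam was 11.72 ± 0.04 (SD, n = 4) with WT and 10.88 ± 0.26 (SD, n = 5) with ApoE plasma, and fell by 0.85 ± 0.09 (SE) log2 units (adjusted p = 3.6e-06). It rose by 0.91 ± 0.10 with AS1 and 0.96 ± 0.08 with AS2 against ApoE plasma (adjusted p = 9.53e-06 and 2.61e-07). Itgax (CD11c of complement receptor 4) was between 4.77 and 5.71 on all WT, ApoE and AS1 arrays and between 7.63 and 8.10 on the AS2 arrays. Its level with AS2 plasma was 7.31-fold that with ApoE plasma (adjusted p = 9.17e-11) and 6.15-fold that with AS1 plasma (2.79e-09). Itgb2, the beta chain that pairs with both, rose by 0.55 ± 0.05 with AS2 against ApoE plasma (adjusted p = 3.75e-07).

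Vsig4, a macrophage receptor for C3b that clears opsonised particles, went the other way with AS2 plasma. It was 6.09 ± 0.20 (SD, n = 4), 6.01 ± 0.33 (SD, n = 5) and 6.01 ± 0.14 (SD, n = 3) with WT, ApoE and AS1 plasma, and 4.57 ± 0.15 (SD, n = 6) with AS2 plasma. It fell by 1.44 ± 0.13 (SE) log2 units against ApoE plasma (adjusted p = 2.57e-07). Its AS2 arrays, from 4.32 to 4.73, lay near the array median of 4.37, so the size of the fall may be understated. C5ar2, the second C5a receptor, was 9.46 ± 0.05 (SD, n = 6) with AS2 plasma and was above the WT level of 8.80 ± 0.14 (SD, n = 4) by 0.66 ± 0.09 (adjusted p = 5.16e-05). Against ApoE plasma C5ar2 rose by 1.05 ± 0.09 with AS2 (adjusted p = 1.64e-07) and by 0.50 ± 0.11 with AS1 plasma (0.00271). With ApoE against WT plasma it fell by 0.38 ± 0.10 (adjusted p = 0.0104). That call was lost when only those arrays were fitted (0.0576) and without ApoE replicates 1 and 2 (0.0647).

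Ficolins are lectins that start the lectin pathway. The ficolin A gene Fcna was 6.67 ± 0.09 (SD, n = 4) with WT plasma, 7.92 ± 0.37 (SD, n = 5) with ApoE, 8.22 ± 0.08 (SD, n = 3) with AS1 and 6.79 ± 0.23 (SD, n = 6) with AS2 plasma. It rose by 1.26 ± 0.15 (SE) log2 units with ApoE against WT and fell by 1.13 ± 0.14 with AS2 against ApoE plasma (adjusted p = 1.14e-05 and 1.09e-05). The ficolin B gene Fcnb, which is known from granulocytes and monocytes, rose by 1.53 ± 0.23 with AS1 against ApoE plasma (adjusted p = 0.00016). Cd55, a regulator that speeds the decay of convertases, was 5.88, 7.58 and 5.03 on the AS1 arrays and 4.28 ± 0.13 (SD, n = 5) with ApoE plasma. Its increase of 1.88 ± 0.34 (adjusted p = 0.000733) was 1.18 without AS1 replicate 2, and over all alternatives the adjusted p ran from 1.94e-05 to 0.0368.

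C1qbp and Calr encode proteins that were found as C1q binding partners and have main functions in mitochondria and the endoplasmic reticulum. They rose by 0.73 and 0.34 log2 units with ApoE against WT plasma (adjusted p = 4.28e-05 and 8.53e-05) and fell by 0.84 and 0.48 with AS1 against ApoE plasma (4.53e-05 and 1.02e-05). With AS2 against ApoE plasma Calr fell by 0.28 (adjusted p = 0.000183), while C1qbp, at -0.15, did not pass (0.367). Cd46, a membrane regulator, fell by 0.37 with ApoE against WT plasma (adjusted p = 0.000262) at levels of 4.03 to 4.79, near the array median.

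**Figure D5:**
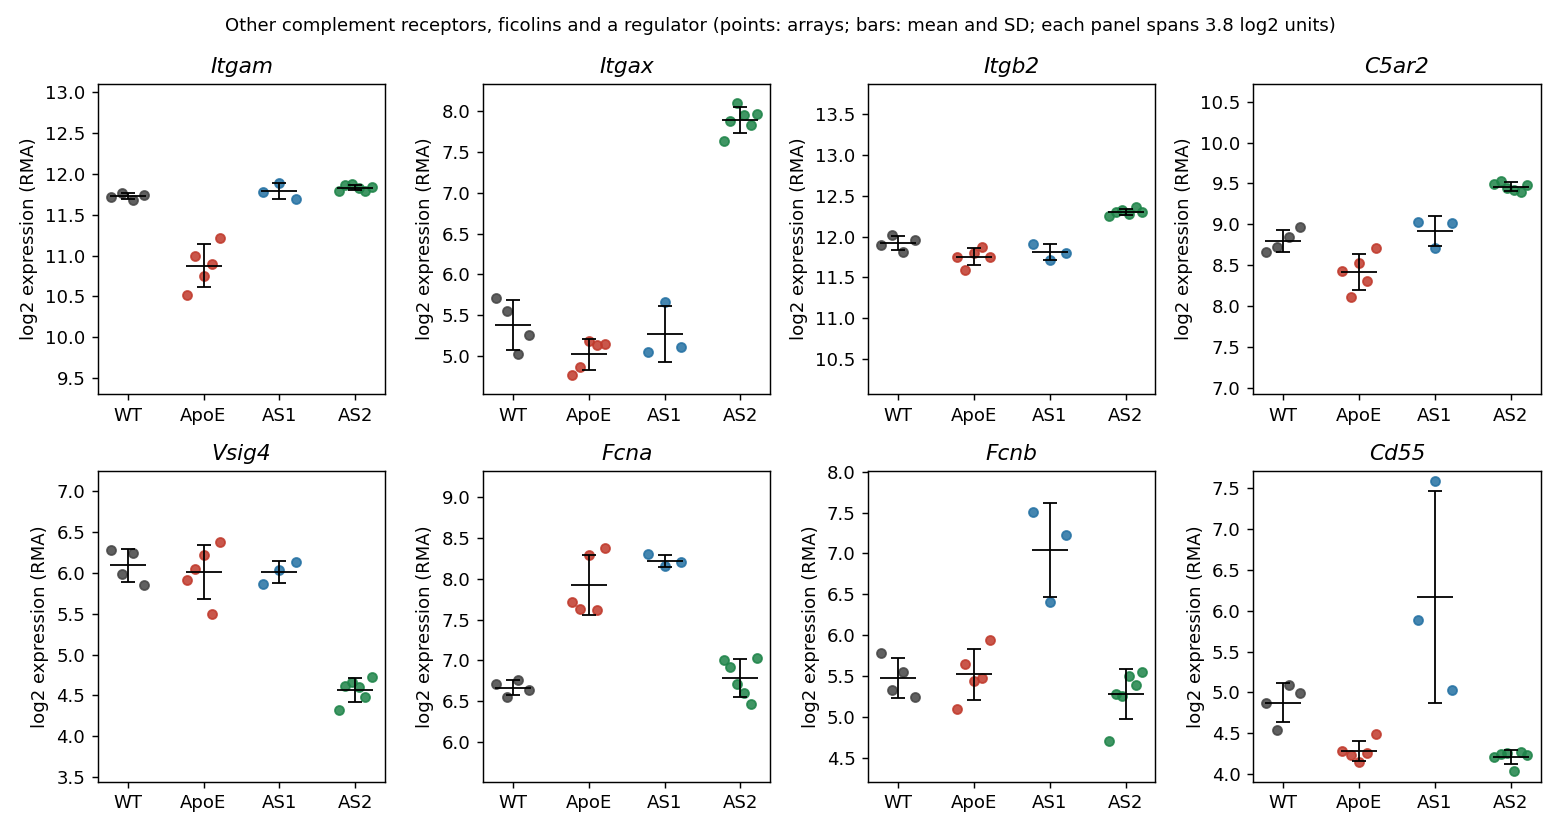
Log2 expression (y axis, each panel spanning 3.8 log2 units) of 8 other complement genes in the 4 plasma groups (x axis); points are arrays and bars show the mean and SD. Itgax lies between 7.63 and 8.10 on the AS2 arrays and at or below 5.71 on all others, and Vsig4 is lowest on the AS2 arrays.

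Marker genes of several cell types moved with the plasma groups, and fewer cells of a type and less RNA per cell cannot be told apart in these cultures. Of 10 macrophage markers, 8 had a row. With ApoE against WT plasma 5 fell and 1 rose, with AS1 against ApoE plasma 5 rose, and with AS2 against ApoE plasma 2 rose and 3 fell. Their mean log2 level per array ran from 11.11 to 11.14 with WT, 10.67 to 10.82 with ApoE, 10.98 to 11.13 with AS1 and 10.62 to 10.74 with AS2 plasma. Of 13 neutrophil markers, all rose with AS1 against ApoE plasma, and 6 fell with AS2 against ApoE plasma. Their mean level ran from 7.55 to 7.82 with WT, 7.40 to 8.51 with ApoE, 9.27 to 9.54 with AS1 and 6.96 to 7.57 with AS2 plasma. Neutrophils also carry C5ar1, C3ar1, Itgam, Cfp and Fcnb. Of 6 B cell markers 5 had a row, and their mean level ran from 4.54 to 4.90 with AS1 plasma and was at most 4.43 on every other array. Of these 5, 2 rose with AS1 against ApoE plasma. Their mean mostly followed Cd79b, at 7.16 with AS1 against 5.94 with ApoE plasma. Cd79a, Ms4a1, Pax5 and Ebf1 were dim, with group means from 3.78 to 4.18, under the array median. The 7 T and NK cell markers ran from 3.94 to 4.16 over all arrays, under the array median. A list of 9 markers of eosinophils, basophils and mast cells had 6 that rose with AS1 against ApoE plasma, with a mean level of 4.96 to 5.31 against 4.29 to 4.58. Of 8 dendritic cell markers, a list without Itgax, 4 rose and 1 fell with ApoE against WT plasma, and 0 rose and 3 fell with AS2 against ApoE plasma by limma. Their mean level ran from 4.28 to 4.41 with WT, 4.42 to 4.63 with ApoE, 4.64 to 4.79 with AS1 and 4.26 to 4.44 with AS2 plasma. Of 9 stromal and endothelial markers 3 fell with AS2 against ApoE plasma, with a mean level of 4.44 to 4.53 against 4.85 to 5.04. That mean mostly followed Pecam1 and Kdr, at 6.35 and 4.95 with AS2 against 8.21 and 6.50 with ApoE plasma. The endothelial markers Cdh5 and Emcn were at 4.34 and 3.58 against 4.40 and 3.60. Of 6 megakaryocyte markers 5 had a row, and their mean level ran from 6.76 to 6.89 with WT, 7.06 to 7.92 with ApoE, 8.01 to 8.18 with AS1 and 6.05 to 6.45 with AS2 plasma. Not all of them followed that mean. With ApoE against WT plasma 4 rose and 1 fell, Pf4, at 9.38 against 9.94. With AS1 against ApoE plasma 3 rose and 0 fell, and with AS2 against ApoE plasma all 5 fell. The part of these cell types in the complement values was not tested.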

How the data were processed

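The deposited values are log2 expression values made with RMA, per the submitters' processing notes, which name no version or genome build. The table held 25428 rows on 18 arrays. The platform annotation named 24705 rows, which were tested; 723 were unnamed here. Precision is limited by the number of arrays.

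From these values, limma 3.58.1 in R 4.3.3 fitted 4 group means (lmFit, eBayes, 14 residual degrees of freedom), with two-sided tests, Benjamini-Hochberg adjustment over all rows and a threshold of 0.05. Pairs of genes were compared by exact permutation tests of within-array differences; the planned pair of C3 and Cfb was not run, as no named row holds C3. The genes, lists and tests were chosen with earlier results of these data known. Named were all 7 genes with a row, up to 5 other complement genes per main comparison by smallest p, further changes of those genes, the macrophage markers given as a check, and the 3 genes most like C1qa, passing over predicted and small RNA genes. The terminal components were named as a class, and endothelial, B cell and megakaryocyte markers to show which genes moved, or went against, the mean of their list.

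On simulated data for ApoE against WT over 24705 rows, 44 of 50 changes of 0.5 log2 units, 100 of 100 of 1 and 50 of 50 of 2 were called. Alternatives were testing unnamed rows too, leaving out the dimmest 40 percent by row mean, keeping the brightest row per symbol, centring arrays on the median or repeating quantile normalization, array weights, eBayes with trend and robust set, fitting only the compared groups, blocking on replicate number, each array left out, ApoE replicates 2 and 5 left out and, added after the data were seen, ApoE replicates 1 and 2 left out. Sequences are RefSeq's, build GRCm38.p6.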

Additional observations from a re-analysis of the deposited data

How the results depend on the processing

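Over 1821 values of single genes under alternatives, 1747 kept their direction and side of the threshold, 48 lost the call, 20 gained it and 6 changed sign. The sign changes were of uncalled differences: Cfp with ApoE against WT plasma was 0.0064 with array weights, 0.072 without ApoE replicates 1 and 2, and -0.073 to 0.013 with single arrays left out, the 0.013 without ApoE replicate 2; Cfb with AS2 against ApoE plasma was -0.0039 with array weights and -0.0071 without ApoE replicates 1 and 2; and C5ar1 with AS2 against AS1 plasma was -0.0059 to 0.12 with single arrays left out, the -0.0059 without AS1 replicate 2.

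With AS1 against ApoE plasma the count of 3 called genes was 1 in a fit of the 2 groups alone, and 2 to 5 with single arrays left out, the 5 without ApoE replicate 3. With AS1 against WT plasma the count of 0 was 1 in a fit of the 2 groups alone, 1 without ApoE replicates 2 and 5, 2 without ApoE replicates 1 and 2, and 0 to 1 with single arrays left out. The cause was not tested. The counts for the other comparisons moved by at most 1.5 times under each alternative run.

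The replicate numbers showed no clear pairing of the arrays: same-numbered arrays deviated together at r from -0.21 to 0.13, over 0.1 in 4 of the 22 pairs that share a number. A pairing may still exist, as the deviations are from means of 3 to 6 arrays and different-numbered arrays were not compared. With the replicate number as a block, 6, 2 and 5 genes passed in the 3 comparisons of ApoE with WT, of AS1 with ApoE and of AS2 with ApoE plasma, in place of 6, 3 and 5. With AS2 against WT plasma 4 passed in place of 6. Among the 7 genes the calls lost were C1qc with AS1 against ApoE (adjusted p = 0.106) and, with AS2 against WT plasma, C3ar1 (0.083) and Cfb (0.0956).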
